A study of Mus musculus with 35 samples.

Results

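Brain vessels were followed here through 10 genes of the blood-brain barrier and of the pericytes that cover it, in mice given stromal cells after a closed head injury. They are Cldn5, Ocln and Tjp1 of the tight junctions, the carriers Mfsd2a and Slc2a1, the efflux pump Abcb1a, Plvap of leaky vessels, the endothelial adhesion protein Pecam1, and Pdgfrb and Rgs5 of pericytes. The genes were taken by name from the 21203 genes of the deposited table, where each name had 1 row. Their levels were no criterion, but earlier results of these data were known when they were chosen. All 10 were kept among 17131 genes by a filter that removed low counts.

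Tissue from around the treatment site of 34 male C57BL/6N mice (C57BL/6NCrl in the labels), 8 to 9 weeks old when procedures began, was sequenced as 1 library per mouse. Sham mice underwent the procedure without the impact and without injection (n = 5, 2 taken at 1 week and 3 at 3 weeks). On day 5 after injury the left hippocampus was injected with PBS, with MSCs or with IL-4 MSCs, and these mice were taken at 1 week post-injury (1 wpi), 2 days after treatment, or at 3 wpi, 16 days after treatment. MSCs are mesenchymal stromal cells, here bought as 1 lot of primary cells from C57BL/6N mice, and IL-4 MSCs are the same cells transfected with synthetic mRNA of the cytokine interleukin-4. Each injured group had 5 mice except PBS at 3 wpi with 4, since the authors excluded a library. All mice were perfused before the tissue was taken. Because Sham mice had neither injury nor injection, both are contained in every difference from Sham and cannot be told apart.

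Endothelial cells of brain vessels are sealed to each other by tight junctions, carry out little transport in vesicles, and move glucose, lipids and drugs through dedicated carriers and pumps. Pericytes, wrapped around the capillaries within a shared basement membrane, are needed to form and keep this barrier. Plvap, a protein of endothelial fenestrae and vesicle diaphragms, is low in a mature barrier and returns in leaky or newly formed vessels.

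The libraries held between 29838423 and 41554322 estimated counts. Levels are given as CPM, the count scaled to the library total, and 3 counts, taken as the detection floor, correspond to 0.0722 to 0.101 CPM, which covers counting error only. The lowest count of any of the 10 genes in any library was 162, for Plvap, so that none was near the floor. The labels name the tissue as left cortex and the study's methods as the injected region of the hemisphere. The 11 cortex markers were detected in every group. Marker scores of striatum, a neighbouring region, ranged widely, from 4.40 to 7.21 (mean log2 CPM) in IL-4 MSCs at 3 wpi and from 3.64 to 5.59 in Sham. Of the vessel markers, all 22 pan-endothelial and all 18 pericyte genes were detected in every group. In the labels all mice of a treated group share a number, so that whatever went with it cannot be told apart from the group. Sham replicate 5 and MSCs replicate 5 at 3 wpi stood above the rest of their groups in several vessel and macrophage markers, and results that rest on them are given without them. Group differences were tested with edgeR's quasi-likelihood test in 1 fit of the 7 groups, and adjusted p-values are Benjamini-Hochberg values over the 17131 genes of a comparison, with 0.05 as the threshold. Fold changes are on the log2 scale with their standard error (SE) and positions are those of GRCm38. P-values set a group difference against the spread between mice.

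The regions upstream of the RefSeq start are shown for 4 of these genes, those on the plus strand with a promoter entry. Their transcripts moved in IL-4 MSCs against Sham at 1 wpi, Cldn5, Slc2a1 and Abcb1a upward and Rgs5 downward. Tjp1, on the minus strand, and Pecam1, which had no promoter entry, also moved there and are not shown. RefSeq promoter entries (GRCm38.p6) matched 7 of the 10 genes. The 250 bases before the annotated start are printed 5′ to 3′ on the plus strand, at chr16:18776597-18776846 (Cldn5), chr4:119108495-119108744 (Slc2a1), chr5:8566841-8567090 (Abcb1a) and chr1:169655251-169655500 (Rgs5). Capitals mark matches, on either strand, to 6 short motifs.
Cldn5: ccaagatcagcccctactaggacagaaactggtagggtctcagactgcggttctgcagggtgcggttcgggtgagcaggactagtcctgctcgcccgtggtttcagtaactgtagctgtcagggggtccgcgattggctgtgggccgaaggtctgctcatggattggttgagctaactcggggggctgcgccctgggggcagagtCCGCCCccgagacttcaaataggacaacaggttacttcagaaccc
Slc2a1: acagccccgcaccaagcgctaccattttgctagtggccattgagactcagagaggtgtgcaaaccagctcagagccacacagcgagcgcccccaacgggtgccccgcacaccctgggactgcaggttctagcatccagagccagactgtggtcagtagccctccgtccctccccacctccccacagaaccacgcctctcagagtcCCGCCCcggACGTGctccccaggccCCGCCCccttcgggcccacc
Abcb1a: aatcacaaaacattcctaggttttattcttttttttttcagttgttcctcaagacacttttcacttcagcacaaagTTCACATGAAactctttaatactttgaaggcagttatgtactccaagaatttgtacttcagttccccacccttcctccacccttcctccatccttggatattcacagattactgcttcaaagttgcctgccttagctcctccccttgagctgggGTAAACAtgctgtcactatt
Rgs5: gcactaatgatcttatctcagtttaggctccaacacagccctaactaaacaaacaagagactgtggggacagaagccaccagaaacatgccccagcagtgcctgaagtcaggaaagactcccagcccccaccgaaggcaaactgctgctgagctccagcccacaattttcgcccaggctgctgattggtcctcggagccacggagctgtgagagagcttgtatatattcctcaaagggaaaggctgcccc

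The motifs were a STAT6 site (TTC and GAA with 4 bases between), an ETS site (CCGGAA), a TCF/LEF site (CTTTGAT), a hypoxia response element (ACGTG), a FOX site (TGTTTAC) and a GC box (GGGCGG), searched in windows that also held the first 50 transcribed bases. Among 32851 promoters of this length, 6.95% held the STAT6 letters, 14.9% the ETS, 3.73% the TCF/LEF, 19.6% the hypoxia, 3.65% the FOX and 35.7% the GC box letters. Cldn5 held 1 GC box, and Slc2a1 held 2 GC boxes and 1 hypoxia element. Abcb1a held 1 STAT6 and 1 FOX match, at a RefSeq start that lies upstream of the GENCODE start of the gene at position 8660077. Rgs5 held none of the 6. Matched genes that are not printed held such letters too. Ocln, not called in any comparison, held 1 STAT6 match and 1 GC box at each of its listed starts, and 1 ETS match at 1 of them. Mfsd2a, not called either, held 2 hypoxia elements, and Tjp1 held 1 hypoxia element and 2 GC boxes. A match describes letters only, and binding was not measured.

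The 10 genes differed widely in level. Per transcript length, as TPM in Sham, Slc2a1 was the most abundant at 84.6 ± 14.5 (SD, n = 5), followed by Tjp1 at 64.2 ± 3.79, Rgs5 at 59.2 ± 2.56 and Cldn5 at 50.3 ± 5.39. Mfsd2a stood at 21.1 ± 2.93 TPM and Abcb1a at 16.5 ± 0.561 TPM. The lowest were Pecam1 at 13.2 ± 1.69, Pdgfrb at 10.8 ± 0.953, Ocln at 7.74 ± 0.543 and Plvap at 6.76 ± 0.769 TPM. Tjp1 and Slc2a1 are also made outside vessels, Tjp1 in other junction-bearing cells and Slc2a1 in glia, so their tissue level is not that of endothelium alone. In bulk tissue a change in the number of cells of a type and a change in RNA per cell cannot be told apart.

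**Figure D1:**
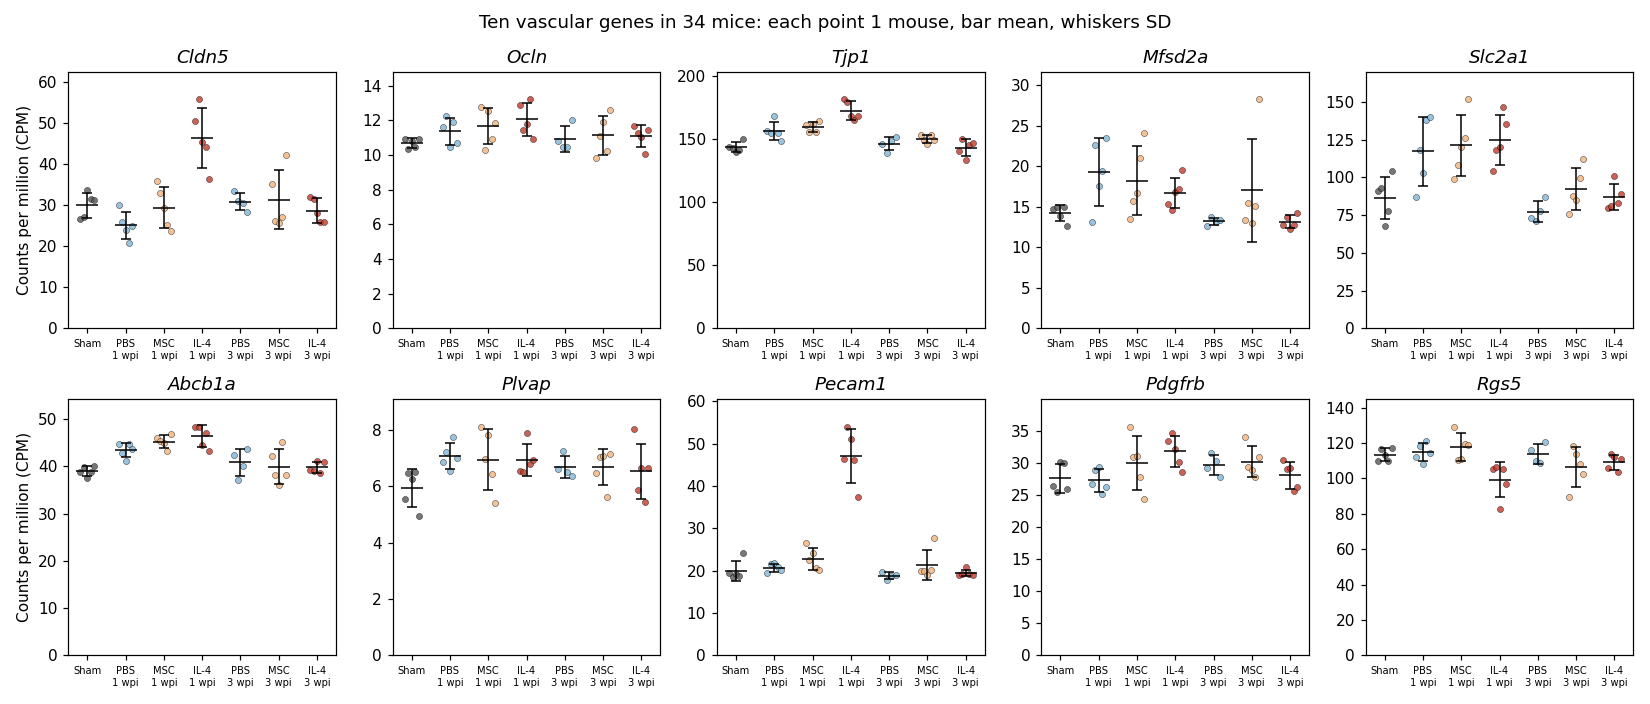
CPM of the 10 genes (y axis of each panel, from 0) in each of 34 mice by group, with the group mean as a bar and the SD as whiskers. Pecam1 and Cldn5 of the 5 IL-4 MSC mice at 1 wpi lie above those of Sham and of the other 1 wpi groups, and Rgs5 of these mice lies below.

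Pecam1 (chr11:106654217-106750628, minus strand), the adhesion protein CD31 of endothelial contacts that leukocytes and platelets also carry, changed most among the 10. At 1 wpi its CPM was 46.4, 54.0, 51.2, 46.0 and 37.3 in the IL-4 MSC mice, against 19.4, 21.5, 21.7, 20.9 and 20.1 in PBS and 26.6, 22.5, 24.2, 20.8 and 20.3 in MSCs. Sham mice had 19.6, 18.4, 19.1, 18.8 and 24.2 CPM. Every IL-4 MSC mouse at 1 wpi was above every other mouse of the study.
The log2 fold change was 1.14 (SE 0.0890, adjusted p = 3.83e-11) against PBS, a 2.21-fold difference with a 95% interval of 1.95 to 2.51. Against MSCs it was 1.01 (SE 0.0885, adjusted p = 6.21e-10) and against Sham 1.16 (SE 0.0891, adjusted p = 3.74e-12). At 3 wpi the IL-4 MSC mice were back between 18.9 and 20.8 CPM, beside 17.7 to 19.8 in PBS, and the fall from 1 wpi was −1.21 (adjusted p = 3.69e-12). MSCs at 3 wpi lay at 19.99, 20.0, 19.1, 20.2 and 27.7 CPM, of which only replicate 5 was above all Sham mice. Against Sham, PBS and MSCs at 1 wpi had log2 fold changes of 0.01 (95% interval −0.17 to 0.20) and 0.14 (−0.04 to 0.33), neither past the threshold.

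Markers of other cells, some of them Pecam1-bearing, moved with it. Of 12 macrophage markers, 10 rose in IL-4 MSCs against PBS at 1 wpi and 12 against Sham, and 11 also rose in PBS against Sham, where Pecam1 did not. Their summed level was 538 to 702 CPM in IL-4 MSCs, 277 to 369 in PBS, 306 to 417 in MSCs and 132 to 217 in Sham, and none was at 0 in any group. With the macrophage score (mean log2 CPM of the 12 genes) as a covariate, added after the data were seen, Pecam1 stayed past the threshold against PBS (0.68, adjusted p = 0.00303) and MSCs (0.59, adjusted p = 0.00943) but not against Sham (0.24, adjusted p = 0.940). The macrophage score of IL-4 MSCs at 1 wpi overlapped that of none of these 3 groups, so the covariate cannot tell this score apart from the group. Of 4 platelet markers tested, 1 rose against PBS, Pf4, which macrophages also make. The 7 listed summed to 5.86 to 8.35 CPM in IL-4 MSCs and 4.47 to 6.28 in PBS. Against Sham, 1 of 5 erythrocyte markers tested rose, the globin Hba-a2 (5.32), and 1 fell, Hba-a1 (−2.01), with a median of −0.66. The 7 erythrocyte genes listed summed to 73.6 to 267 CPM in IL-4 MSCs, 3.72 to 31.0 in PBS, 8.5 to 42 in MSCs and 1.94 to 19.5 in Sham. Their scores overlapped, at 0.730 to 1.80 in IL-4 MSCs and −1.48 to 1.54 in Sham. The origin of this difference was not tested. Of 14 tested markers of the injected cells, 8 rose in IL-4 MSCs against PBS (median 0.69). Against Sham 9 rose and 1 fell. Their score was 1.21 to 1.67 in IL-4 MSCs, 0.634 to 1.46 in MSCs and 0.310 to 0.632 in PBS. The 15 listed summed to 550 to 593 CPM in IL-4 MSCs, 469 to 576 in PBS and 528 to 546 in Sham. Sham mice received no cells, so this sum is no measure of injected cells. In PBS Hoxa9, Hoxa10 and Hoxc10 were at 0 in all mice. These 3 were also at 0 in Sham and in all groups at 3 wpi, and had 0.289, 0.350 and 0.497 CPM on average in IL-4 MSCs at 1 wpi. The paper reports the injected cells, in culture, as negative for the Pecam1 protein, which gives no value for their RNA in tissue. The part of macrophages, platelets and injected cells in Pecam1 was not tested.

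The endothelial markers that share no gene with the 10 rose as well, by less. Of 22 pan-endothelial genes, 18 rose in IL-4 MSCs against PBS at 1 wpi, 17 against MSCs and 17 against Sham, with none lower, and the median log2 fold changes were 0.44, 0.33 and 0.40 where those of all genes tested were −0.0042, −0.0081 and −0.018. Vwf, the von Willebrand factor stored in endothelium and platelets, rose most (1.06, SE 0.194, adjusted p = 0.000139, against PBS), followed by the surface proteins Icam2 (0.98) and Clec14a (0.96). The vascular cadherin Cdh5 rose by 0.43 and the VEGF receptor Kdr by 0.54. The shares of all genes called higher were 11.2% against PBS, 7.66% against MSCs and 18.4% against Sham. Between the weeks 21 of 22 fell in IL-4 MSCs (median −0.56, all genes 0.025), to a median of −0.094 against Sham at 3 wpi.

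**Figure D2:**
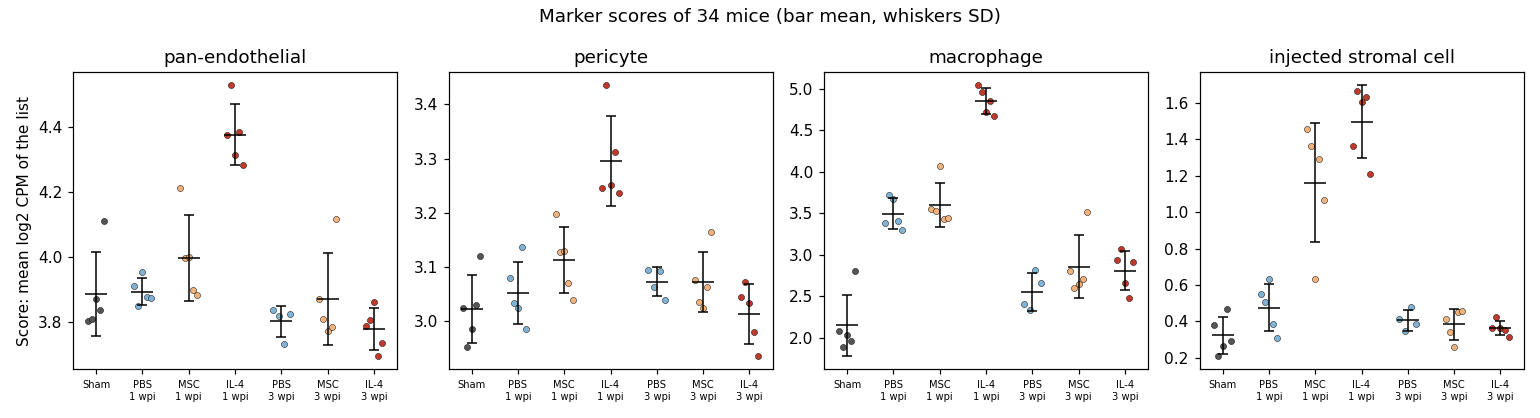
Marker scores (y axis, mean log2 CPM of the genes of a list; the axis does not start at 0) of 34 mice by group for pan-endothelial, pericyte, macrophage and injected stromal cell lists, with mean and SD. The pan-endothelial score of IL-4 MSCs at 1 wpi (4.28 to 4.53) is above those of the other groups, as is the macrophage score (4.68 to 5.04).

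Among the tight junction genes, Cldn5 rose clearly in IL-4 MSCs at 1 wpi, Tjp1 rose slightly, and Ocln was not called in any comparison. Cldn5 (chr16:18776847-18778262, plus strand) encodes claudin-5, the sealing strand protein of brain endothelium. Its CPM was 50.5, 55.7, 45.3, 44.2 and 36.3 in IL-4 MSCs at 1 wpi, against 29.96, 25.8, 23.9, 20.7 and 24.9 in PBS and 35.8, 32.9, 29.2, 25.2 and 23.7 in MSCs. In Sham it was 26.7, 26.99, 33.6, 31.6 and 31.1 CPM. All IL-4 MSC mice were above all mice of these 3 groups, and the mean of PBS, 25.1 ± 3.35 (SD, n = 5), was the lowest of the 7 groups.
The excess of Cldn5 over PBS was 0.85 (SE 0.126, adjusted p = 5.89e-06), 1.81-fold with a 95% interval of 1.51 to 2.16. Over MSCs it was 0.64 (SE 0.125, adjusted p = 0.000498) and over Sham 0.56 (SE 0.124, adjusted p = 0.000583). With the macrophage score as a covariate none of these 3 calls was kept, and the values were 0.40 against PBS (adjusted p = 0.583), 0.22 against MSCs (adjusted p = 0.991) and, with the sign turned, −0.35 against Sham (adjusted p = 0.954). PBS against Sham gave −0.30 with a 95% interval of −0.55 to −0.04 that did not pass after adjustment (adjusted p = 0.124). From 1 to 3 wpi Cldn5 fell in IL-4 MSCs by 0.64 (adjusted p = 0.000156) to between 25.8 and 31.9 CPM, beside 28.3 to 33.4 in PBS and 25.7 to 42.1 in MSCs.

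Tjp1 (chr7:65296165-65527781, minus strand), the scaffold ZO-1 that ties claudins to actin, had 182, 180, 168, 165 and 169 CPM in IL-4 MSCs at 1 wpi. Sham mice had 144, 143, 140, 142 and 150 CPM. PBS had 157, 155, 168, 155 and 149 CPM and MSCs 161, 156, 162, 155 and 165. IL-4 MSCs did not overlap MSCs or Sham, and overlapped PBS through its replicate 3.
Against Sham the log2 fold changes were small. IL-4 MSCs had 0.19 (SE 0.0346, adjusted p = 4.01e-05), MSCs had 0.11 (SE 0.0346, adjusted p = 0.0317) and PBS had 0.09 (95% interval 0.02 to 0.16), the last without passing (adjusted p = 0.0958). The call in MSCs was lost without Sham replicate 2 or 4 or MSCs replicate 1, 3 or 5 (0.09 to 0.12 over all 10 such settings, adjusted p up to 0.0858) and with Sham mice of that week only (0.12, adjusted p = 0.0786). Against PBS, IL-4 MSCs were higher by 0.11 (adjusted p = 0.0319), but on log2(TPM + 1) by 0.02 (adjusted p = 0.831), a scale on which Tjp1 was 73.3 ± 3.92 TPM against 72.2 ± 4.24 (SD, n = 5). From 1 to 3 wpi Tjp1 fell in IL-4 MSCs by 0.21 (adjusted p = 1.80e-05).

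Ocln (chr13:100496507-100552718, minus strand), the tetraspan junction protein occludin, ranged from 10.9 to 13.2 CPM in IL-4 MSCs at 1 wpi. PBS mice had 10.4 to 12.2 CPM, MSC mice 10.3 to 12.8 and Sham mice 10.4 to 10.9, a range that IL-4 MSCs just cleared. IL-4 MSCs and Sham did not overlap in 25.7% of all genes tested. IL-4 MSCs against PBS gave 0.05, with a 95% interval from −0.09 to 0.18 whose upper bound lies below the value of Cldn5. Most of its counts were fractional (over 0.01 from a whole number), in 32 of 34 libraries, since reads were shared with other sequences, which makes its level less certain.
Beyond these 3, 15 other genes of tight junctions and endothelial contacts were followed. In IL-4 MSCs 4 rose against PBS at 1 wpi, namely the tricellular junction receptor Lsr (0.56), Esam (0.44), Cdh5 (0.43) and F11r (0.36), and none fell, with a median of 0.12. Against Sham 6 rose, F11r most (0.80, SE 0.120, adjusted p = 2.40e-06), and in PBS 1 of 15. Esam and Cdh5 also belong to the pan-endothelial list. As a background, 11.2% of all genes tested were called higher in IL-4 MSCs against PBS and 18.4% against Sham. In PBS against Sham 13.8% were called in either direction.

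**Figure D3:**
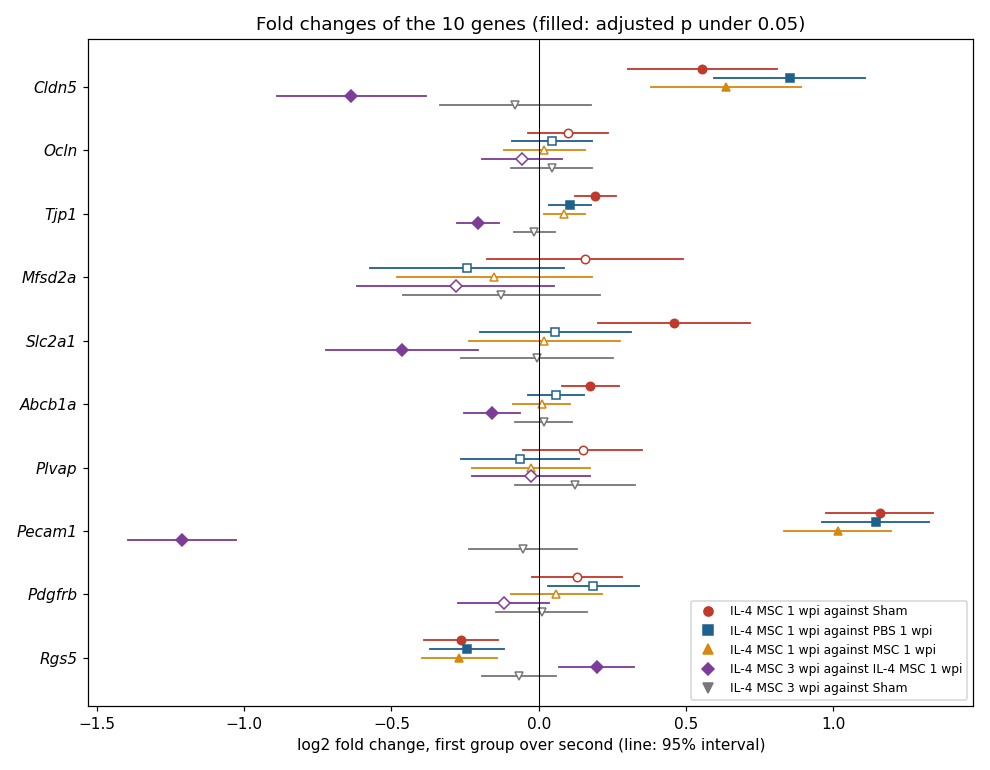
Log2 fold change (x axis, first group over second) of the 10 genes in 5 comparisons with 95% intervals as lines; filled symbols passed an adjusted p of 0.05. Pecam1 and Cldn5 lie right of 0 in all 3 comparisons of IL-4 MSCs at 1 wpi and left of 0 from 1 to 3 wpi, and no gene is filled in IL-4 MSCs at 3 wpi against Sham.

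Of the transport genes, Slc2a1 rose at 1 wpi against Sham with each treatment and Abcb1a with both kinds of cells, while Mfsd2a was not called. Slc2a1 (chr4:119108711-119137983, plus strand) encodes the glucose carrier GLUT1. Sham mice had 90.7, 92.7, 68.0, 77.8 and 104 CPM, and at 1 wpi PBS had 87.0, 118, 103, 138 and 140, MSCs 99.1, 108, 120, 126.4 and 152, and IL-4 MSCs 104, 118, 120, 147 and 135. The IL-4 MSC mice lay just above the highest Sham mouse, while PBS and MSCs overlapped Sham.
Slc2a1 exceeded Sham by 0.40 with PBS (SE 0.127, adjusted p = 0.0303). The excess was 0.44 with MSCs (SE 0.127, adjusted p = 0.0135), and with IL-4 MSCs it was 0.46 (SE 0.127, adjusted p = 0.00446). No difference between treatments was called, with 0.06 (95% interval −0.20 to 0.31) for IL-4 MSCs over PBS. Markers of astrocytes, which also make Slc2a1, rose in the same groups. Of 11 such markers 5 were higher than in Sham with PBS, 5 with MSCs and 6 with IL-4 MSCs, where 1 was lower. None was at 0 in any group, and they summed to 5318 to 5810 CPM in Sham, 6571 to 6945 in PBS, 6332 to 7422 in MSCs and 6171 to 7010 in IL-4 MSCs, without overlap with Sham. Their part in Slc2a1 was not tested. The call in PBS was lost when Sham replicate 3 or 4 or PBS replicate 2, 4 or 5 was left out (0.33 to 0.49 over all 10 such settings), and in MSCs without its replicate 5 (0.34, adjusted p = 0.0608). By 3 wpi PBS mice had fallen by 0.58 (adjusted p = 0.00592) and IL-4 MSC mice by 0.46 (adjusted p = 0.00459), whereas MSCs, at −0.36, did not pass (adjusted p = 0.0896).

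Abcb1a (chr5:8660077-8748575, plus strand) is a P-glycoprotein gene, whose product pumps drugs back into blood. Its CPM was 38.8, 40.0, 37.5, 38.8 and 40.2 in Sham, 44.7, 42.8, 41.1, 44.8 and 43.6 in PBS, 45.9, 45.4, 44.9, 43.2 and 46.9 in MSCs, and 48.4, 48.4, 44.6, 47.1 and 43.4 in IL-4 MSCs at 1 wpi. No mouse of the 3 treated groups at 1 wpi was as low as the highest Sham mouse.
The changes against Sham were small. MSCs had 0.17 (SE 0.0473, adjusted p = 0.0126) and IL-4 MSCs 0.18 (SE 0.0473, adjusted p = 0.00359), and PBS, at 0.12, did not pass (adjusted p = 0.104). In IL-4 MSCs Abcb1a fell by 0.16 by 3 wpi (adjusted p = 0.00915). Its paralogue Abcb1b (chr5:8798147-8866315, plus strand) was the rarer transcript, at 3.87 ± 0.592 CPM in Sham against 39.0 ± 1.08 for Abcb1a (SD, n = 5). Abcb1b rose in each group at 1 wpi against Sham. The change was 0.34 with PBS (adjusted p = 0.0454), 0.48 with MSCs (adjusted p = 0.00245), and 0.59 with IL-4 MSCs (adjusted p = 8.69e-05). Both paralogues had fractional counts in nearly all libraries, since reads were shared, so their split is uncertain.

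Mfsd2a (chr4:122946850-122961188, minus strand), the carrier of omega-3 lysolipids that also holds vesicle transport down, had 13.2, 22.7, 17.6, 19.4 and 23.5 CPM in PBS at 1 wpi, 13.5, 15.7, 16.8, 21.1 and 24.1 in MSCs and 15.3, 14.6, 16.8, 17.2 and 19.5 in IL-4 MSCs. Sham mice had 14.7, 14.97, 13.9, 15.02 and 12.6 CPM. Mice of PBS and MSCs were spread widely, and all 3 groups overlapped Sham.
Against Sham the log2 fold changes were 0.40 in PBS (95% interval 0.07 to 0.73, adjusted p = 0.104), 0.31 in MSCs (−0.03 to 0.64) and 0.16 in IL-4 MSCs (−0.18 to 0.49), and IL-4 MSCs against PBS gave −0.24 (−0.57 to 0.09). At 3 wpi MSCs replicate 5, at 28.3 CPM, was far above the next mouse at 15.5.
Of 19 other barrier carriers and receptors, 8 rose and 2 fell in IL-4 MSCs against Sham, with a median of 0.14. Slco2b1, an organic anion carrier, rose by 0.80 and Slc22a8, another one, fell by 0.49 (adjusted p = 0.00114). PBS and MSCs had 5 higher each against Sham, with 0 and 2 lower. Against PBS, 1 rose in IL-4 MSCs, the glycoprotein Bsg (0.19), and 2 fell, Slc22a8 (−0.35) and the proteoglycan Spock2 (−0.17). In that comparison 11.2% of all genes tested were called higher and 6.16% lower, so these few calls are no result about the carriers. Of 19 genes of Wnt signalling that drives barrier formation, 5 rose against Sham in IL-4 MSCs, 3 in PBS and 5 in MSCs, none lower. Of all genes tested, 18.4% were called higher and 18.5% lower in IL-4 MSCs against Sham. The shares called in either direction were 13.8% in PBS and 17.8% in MSCs. Beside these shares, counts this small are read as no result about the Wnt list. The largest in IL-4 MSCs were Apcdd1 (0.53), a Wnt target, and the coreceptor Lrp5 (0.47).

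Plvap (chr8:71497765-71511752, minus strand) was not called in any comparison. Its CPM was 5.55, 6.45, 6.24, 6.498 and 4.94 in Sham, 6.87, 7.22, 6.52, 7.74 and 6.98 in PBS, 8.11, 6.96, 7.80, 6.41 and 5.42 in MSCs and 6.54, 6.501, 7.88, 6.79 and 6.94 in IL-4 MSCs at 1 wpi. PBS and IL-4 MSCs lay above all Sham mice by a narrow gap, and MSCs overlapped them. PBS did not overlap Sham in 9.88% of all genes tested, and IL-4 MSCs in 25.7%.
PBS against Sham gave 0.21 (95% interval 0.01 to 0.41, adjusted p = 0.168) and IL-4 MSCs against PBS −0.06 (−0.26 to 0.14), so a change of Plvap as large as that of Pecam1 lies outside the interval. Of 9 genes of caveolae, the vesicle pits, 6 rose in IL-4 MSCs against Sham (median 0.28), 4 in MSCs and 2 in PBS. Against PBS 4 rose, the membrane ATPase Ehd2 (0.59), caveolin Cav1 (0.53), its partner Cavin1 (0.41) and Cavin3 (0.29). Fibroblasts and other cells also make these genes. Of 19 genes of activated or sprouting endothelium, 8 rose against PBS, led by the urokinase receptor Plaur (1.53), which macrophages make too, by Cd93 (1.06) and by the growth factor Vegfa (0.67, adjusted p = 2.84e-08). For both lists, the share of all genes called higher in IL-4 MSCs was 11.2% against PBS and 18.4% against Sham. Against Sham, 13.8% of all genes were called in PBS and 17.8% in MSCs, in either direction.

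Of the pericyte genes, Rgs5 fell slightly in IL-4 MSCs at 1 wpi and Pdgfrb was not called. Rgs5 (chr1:169655501-169695813, plus strand), a brake on G protein signalling in pericytes, had 105, 106, 82.9, 105 and 97.0 CPM in IL-4 MSCs at 1 wpi, against 112, 118, 108, 121 and 114 in PBS and 129, 111, 111, 120 and 119 in MSCs. Sham mice had 109.9, 116, 113, 109.9 and 117 CPM. All 5 IL-4 MSC mice were below all mice of these groups, with replicate 3 lowest.
The fall was −0.24 against PBS (SE 0.0619, adjusted p = 0.00532), −0.27 against MSCs (SE 0.0618, adjusted p = 0.00296) and −0.26 against Sham (SE 0.0619, adjusted p = 0.000997). Without replicate 3 of IL-4 MSCs it was −0.16 against PBS, past the threshold no longer (adjusted p = 0.0551), while the calls against MSCs and Sham held in all 10 settings that left out a mouse. By 3 wpi Rgs5 had risen by 0.20 in IL-4 MSCs (adjusted p = 0.0138), to 104 to 114 CPM, a call that was lost without replicate 3 or 5 at 1 wpi or 2 or 3 at 3 wpi (0.11, adjusted p = 0.157, without replicate 3 at 1 wpi), and without Sham and MSCs replicate 5 (0.16, adjusted p = 0.0581). Counts of Rgs5 were fractional, with the same tolerance of 0.01, in 33 of 34 libraries.

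Pdgfrb, the receptor through which endothelial PDGF-B recruits pericytes, had 33.5, 34.6, 32.2, 30.2 and 28.5 CPM in IL-4 MSCs at 1 wpi, 26.8, 28.9, 29.3, 25.1 and 26.3 in PBS, 35.7, 30.9, 31.1, 27.8 and 24.4 in MSCs and 26.3, 25.5, 30.2, 29.99 and 26.0 in Sham. The groups overlapped. IL-4 MSCs against PBS gave 0.18 (95% interval 0.03 to 0.34, adjusted p = 0.0924). Stromal cells and fibroblasts also make Pdgfrb, and of 15 fibroblast markers 7 rose in this comparison.
Of 18 other pericyte genes 5 rose and 1 fell in IL-4 MSCs against PBS, and the median of 0.07 was near that of all genes. The 5 were the peptidase Anpep (2.37, SE 0.135, adjusted p = 3.00e-14), which myeloid cells also carry, Ndufa4l2 (1.14), the stromal surface protein Cd248 (0.65), Higd1b (0.47) and the adhesion protein Mcam (0.37), which endothelium carries as well. The pericyte matrix protein Vtn fell by 0.30. Anpep was 31.7 ± 5.38 CPM in IL-4 MSCs and 5.97 ± 0.598 in PBS (SD, n = 5). The summed pericyte list was 346 to 401 CPM in IL-4 MSCs and 286 to 343 in PBS. The 10 smooth muscle genes had a median of 0.16 against PBS, and against Sham 1 rose, Tagln (0.58), and 1 fell, Myh11 (−0.45). Of 16 basement membrane genes 6 rose against PBS, Hspg2 most (0.81). Beside these lists, 11.2% of all genes tested were called higher and 6.16% lower against PBS, and 18.4% and 18.5% against Sham.

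**Figure D4:**
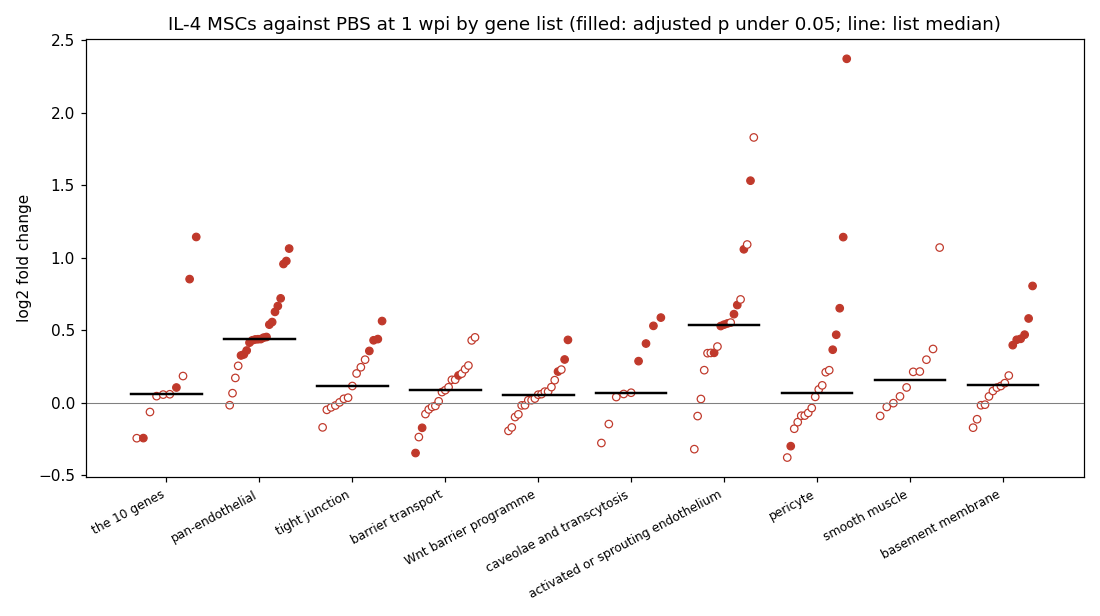
Log2 fold change (y axis) of each gene in 10 lists (x axis) for IL-4 MSCs against PBS at 1 wpi, one point per gene, filled where the adjusted p was under 0.05, with the median of a list as a line. The pan-endothelial median (0.44) is above those of the tight junction (0.12), barrier transport (0.087) and pericyte (0.066) lists.

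Counted together against the share of all genes called, the 10 genes stood as follows. In IL-4 MSCs at 1 wpi 6 of 10 were called against Sham, 5 higher and 1 lower, where 37.0% of all genes tested were called (18.4% higher and 18.5% lower). Against PBS it was 3 higher and 1 lower, where 17.4% of all genes were called (11.2% higher and 6.16% lower), and against MSCs 2 higher and 1 lower, where 8.69% were (7.66% higher and 1.03% lower). PBS and MSCs had 1 and 3 of 10 called against Sham at 1 wpi, beside 13.8% and 17.8% of all genes. By CPM, IL-4 MSCs at 1 wpi did not overlap Sham in 8 of the 10 genes, PBS in 3 and MSCs in 4. The shares of all genes tested were 25.7%, 14.2% and 9.68%. PBS and MSCs at 1 wpi did not overlap Sham in 2 genes each, beside 9.88% and 13.4% of all genes. These comparisons share their Sham or PBS mice.

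Between naïve MSCs and PBS none of the 10 was called at either week (0 by edgeR and 0 by DESeq2). After adjustment 0.123% of all genes were called at 1 wpi and 0.0817% at 3 wpi. An unadjusted p under 0.05 was found for 0 of the 10 at 1 wpi and for 1 at 3 wpi, Mfsd2a, and for 4.52% and 5.73% of all genes. The widest interval at 1 wpi was that of Mfsd2a, −0.42 to 0.23, and Cldn5 had 0.22 (−0.04 to 0.47). At 3 wpi no gene of the 10 was called against Sham in PBS, MSCs or IL-4 MSCs (0 by edgeR, 0 by DESeq2 and 0 at an unadjusted p under 0.05), where after adjustment 0.0292%, 1.15% and 4.27% of all genes were called, and 914, 1886 and 3408 of the 17131 genes had such an unadjusted p. IL-4 MSCs against PBS and against MSCs at 3 wpi also gave 0 by both tools, where 2.94% and 3.47% of all genes were called. At an unadjusted p under 0.05 these were 0 and 1 of the 10, beside 16.9% and 17.9% of all genes. There Pecam1 had 0.05 for IL-4 MSCs over PBS (95% interval −0.14 to 0.25) and Cldn5 had −0.10 (−0.37 to 0.17).

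Between the weeks, 6 of 10 changed in IL-4 MSCs, 5 lower and Rgs5 higher at 3 wpi, beside 33.0% of all genes. In PBS 1 changed, Slc2a1, beside 5.51%, and in MSCs 0 by edgeR and 1 by DESeq2, beside 6.15% by edgeR. In MSCs 2 of the 10 had an unadjusted p under 0.05, as did 18.2% of all genes. Whether a treatment acted differently at the 2 weeks was tested as an interaction. The excess of IL-4 MSCs over PBS at 1 wpi went beyond that at 3 wpi for Pecam1, by 1.09 (adjusted p = 2.17e-06), and for Cldn5, by 0.95 (adjusted p = 0.00124), where 4.72% of all genes were called. Over MSCs it did so for Pecam1 by 1.15 (adjusted p = 2.82e-07) and for Cldn5 by 0.76 (adjusted p = 0.00577), and Rgs5 differed by −0.31 (adjusted p = 0.0248), where 7.86% were. For Rgs5 the call was lost in 8 of 20 settings that left out a mouse (−0.33 to −0.23 over the 20), namely replicates 3 and 5 of IL-4 MSCs and 1 and 4 of MSCs at 1 wpi, and 2 and 3 of IL-4 MSCs and 1 and 5 of MSCs at 3 wpi, and without both Sham and MSCs replicate 5 (−0.26, adjusted p = 0.0937). Tjp1 had 0.15 and did not pass (adjusted p = 0.0526). Between MSCs and PBS 0 of the 10 were called by edgeR and 0 had an unadjusted p under 0.05, where 0% of all genes were called and 3.34% had such a p.

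Since endothelial markers rose as a group, each gene was also set against the pan-endothelial score of the same mouse, as its log2 CPM minus that score. On this scale Pecam1 remained higher in IL-4 MSCs at 1 wpi than in PBS (0.65), MSCs (0.63) and Sham (0.66), while Ocln, Tjp1, Abcb1a and Rgs5 were lower than in all 3. Against PBS, the differences were −0.73 for Rgs5, −0.55 for Plvap, −0.44 for Ocln, −0.43 for Abcb1a, −0.38 for Tjp1 and −0.30 for Pdgfrb. Each of these had an exact permutation p of 0.00794, the smallest that 5 mice against 5 allow, and an adjusted p of 0.0476 over the 150 tests. For Cldn5 the difference from PBS was 0.36 (exact permutation p = 0.0159, adjusted p = 0.0794) and from Sham 0.06 (exact permutation p = 0.556, adjusted p = 0.741). Neither passed after adjustment.
In all, 25 of 150 such tests passed, every one with IL-4 MSCs at 1 wpi on one side. The same p was reached by many genes on this scale. Against PBS, IL-4 MSCs had 65.6% of 17117 genes lower and 2.55% higher at the smallest p. The shares were 46.3% and 2.17% against MSCs and 60.1% and 6.18% against Sham, and from 1 to 3 wpi 72.2% were higher and 4.5% lower. The lower values of 6, 5 and 4 of the 10 genes in these comparisons, and the 6 higher ones at 3 wpi, are therefore near or below the background and no result about these genes, while Pecam1 was among the few genes that were higher. When the endothelial list was summed up by its median instead, a choice made after the data were seen, all 25 kept their direction and 0 passed, with adjusted p between 0.0700 and 0.136. The score is a mean over markers whose own changes run from 0.33 to 1.06 in those called, so a gene that did not change in CPM is lower on this scale by construction.

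**Figure D5:**
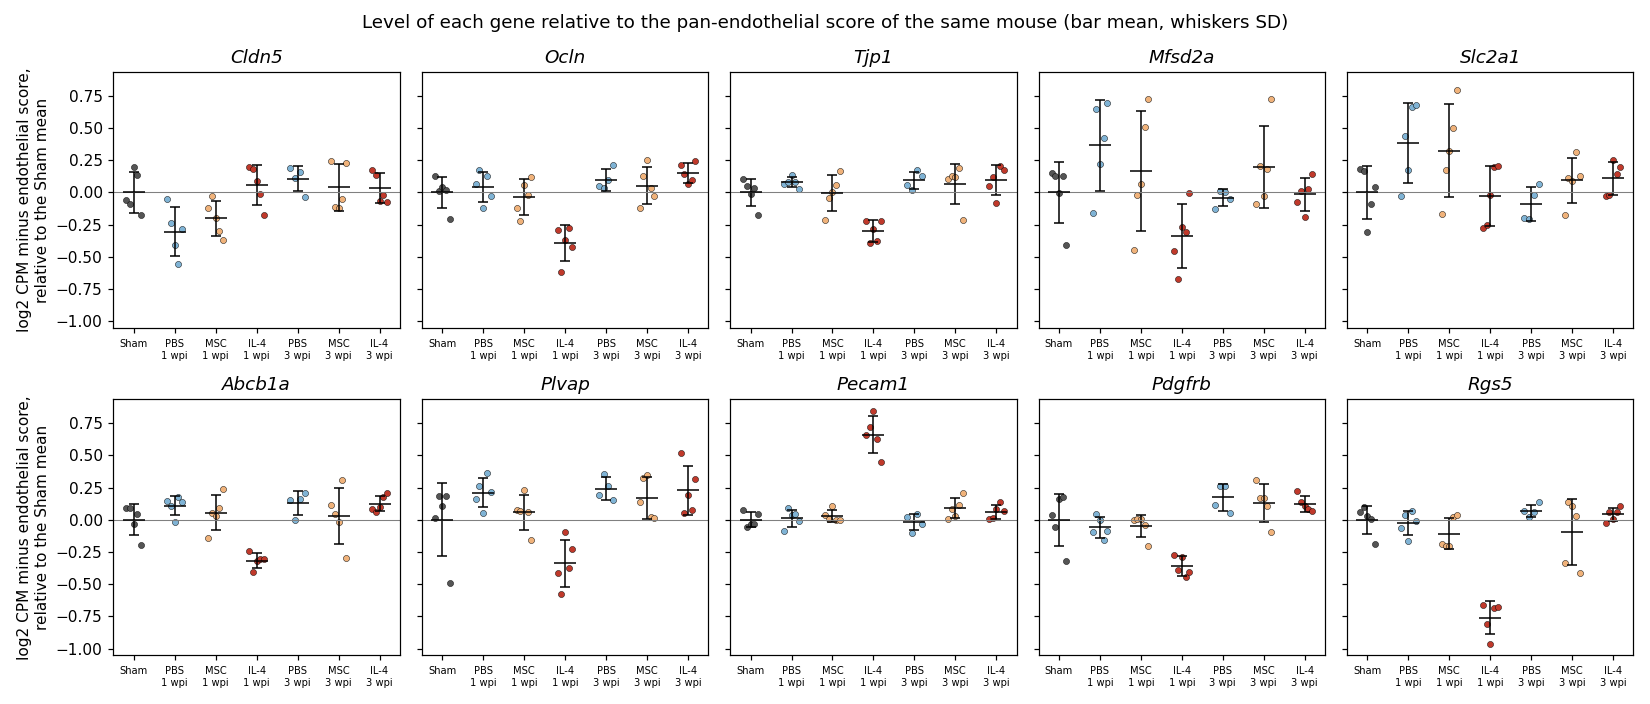
Log2 CPM of each gene minus the pan-endothelial score of the same mouse (y axis, shifted so that the Sham mean is 0) for 34 mice by group, with mean and SD. In IL-4 MSCs at 1 wpi Pecam1 lies above the other groups and Rgs5 below, while the mean of Cldn5 is 0.06 above that of Sham.

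Across the 34 mice, which share groups and so are no independent points, Pecam1 followed the pan-endothelial score most closely (Pearson's r = 0.95), then Cldn5 (r = 0.770) and Tjp1 (r = 0.710), whereas Plvap did not (r = 0.0969) and Rgs5 ran against it (r = −0.458). Among the 10 genes the closest pair was Cldn5 and Pecam1 (r = 0.777), followed by Mfsd2a and Slc2a1 (r = 0.711). The genes most like Cldn5 in log2 CPM over the 34 libraries were Arhgap29 (r = 0.861), Egfl7 (r = 0.825) and Clec14a (r = 0.823), of which the last 2 are endothelial markers of the list. For Pdgfrb they were Atp8b1 (r = 0.743), Kdr (r = 0.699) and Cdc42ep1 (r = 0.697), and for Plvap Arhgef33 (r = 0.641), Ascc1 (r = 0.587) and Uvssa (r = 0.585). These values describe the libraries and were not tested.

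In the order of group means, IL-4 MSCs at 1 wpi stood highest for Cldn5, Ocln, Tjp1, Slc2a1, Abcb1a, Pecam1 and Pdgfrb and lowest for Rgs5. It was clear of the next group, MSCs at 1 wpi, without overlap of mice for Pecam1 and Tjp1. Neighbouring groups in all other places of these orders overlapped. For Mfsd2a and Plvap PBS at 1 wpi stood highest, at 19.3 ± 4.16 and 7.07 ± 0.451 CPM (SD, n = 5).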

How the data were processed

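RNA of 34 mouse tissue samples was sequenced as total RNA libraries with paired reads. After trimming (cutadapt 2.4), the authors quantified protein-coding GENCODE transcripts of GRCm38 by pseudoalignment (kallisto 0.46) and deposited estimated counts and TPM per gene, unnormalized between libraries. They excluded 1 library. The 63 columns of the authors' own comparisons (fold changes and p-values) were not used.

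Estimated counts were rounded to whole numbers and tested with edgeR 4.0.16 (quasi-likelihood, TMM, its default filter on low counts, 17131 genes) in R 4.3.3, in place of sleuth, which needs transcript files. A TPM difference is on the log2(TPM + 1) scale in limma 3.58.1. DESeq2 1.42.0 was an alternative. A score is the mean over a list of log2 CPM (prior count 2). Exact permutation tests (two-sided) used Python 3.11.15. All edgeR tests are two-sided.

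Libraries held 29838423 to 41554322 estimated counts. In simulated counts with known changes for IL-4 MSCs against PBS at 1 wpi (17131 genes), 35.8% of genes changed 1.5-fold and 92.5% of those changed 2-fold were recovered, and 6 unchanged genes were called. The simulation gave every gene the same spread between mice and held no change below 1.5-fold.

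The 10 genes and all lists were chosen with earlier results of these data known. Of other lists, the text names up to 3 genes with the largest change past the threshold in IL-4 MSCs against PBS and against Sham at 1 wpi, the 3 genes most like Cldn5, Plvap and Pdgfrb, and Abcb1b. Further list genes named to make up a count of 6 or fewer, and Cdh5 and Kdr, were chosen after their values were seen. Over all genes, replicate numbers did not pair the mice. The median correlation of deviations was 0.0116 over 99 pairs with the same number and 0.0012 over 396 other pairs. For single genes this cannot exclude a shared order. At 1 wpi Slc2a1 was 87.0, 99.1 and 104 CPM in replicate 1 of PBS, MSCs and IL-4 MSCs, and 140, 152 and 135 in replicate 5. Mfsd2a also tended upward with the number in these groups, and Cldn5 downward. Whether the number marks an order was not tested.

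The alternatives were other normalization and filters, DESeq2, single libraries or pairs of groups left out or fitted alone, and marker scores as covariates.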

Additional observations from a re-analysis of the deposited data

Results flagged for a closer look

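In 4 of the 70 sets of mice (10 genes in 7 groups), the highest mouse lay far from the others by Dixon's criterion, which chance meets in about 1 of 20 sets. Mfsd2a in MSCs replicate 5 at 3 wpi was 28.27 CPM, with the next mouse at 15.52. Pecam1 in the same mouse was 27.69 CPM, with the next at 20.23, and in Sham replicate 5 it was 24.23 CPM, with the next at 19.59. Both mice also had the highest macrophage scores of their groups, 3.52 and 2.80, and pan-endothelial scores of 4.12 and 4.11; the part of these in the values was not tested. Pecam1 in IL-4 MSCs replicate 3 at 3 wpi was 20.82 CPM, with the next at 19.31, a small gap in a narrow group.

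The effect of a treatment differed between the weeks by the interaction test of edgeR in 5 cases. Against PBS, IL-4 MSCs had a larger difference at 1 than at 3 wpi for Cldn5, by 0.9517 on the log2 scale, and for Pecam1, by 1.09. Against MSCs it was larger for Cldn5 by 0.759 and for Pecam1 by 1.148. For Rgs5 the contrast was −0.3078, a lower level at 1 wpi. The groups at 3 wpi had 16 days after treatment in place of 2.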

How the results depend on the processing

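Of 24 results past the threshold, the 24 kept direction and call with RLE normalization, without a filter, with DESeq2, with a striatum score as covariate and with the replicate number as a block. The block raised MSCs at 3 against 1 wpi from 0 to 2 genes and changed no call of the 24. Over all genes the numbers did not pair the mice. With 2 groups fitted alone PBS against Sham gave 0 genes. The striatum score gave 2 genes for PBS at 3 against 1 wpi, as did DESeq2 and the fit without Sham and MSCs replicate 5; MSCs at 3 against 1 wpi gave 1 gene in the last 2 and on TPM, where PBS against Sham gave 2. With the pan-endothelial score as covariate, IL-4 MSCs at 1 wpi had 1 gene against Sham, 1 against PBS, 1 against MSCs and 1 against 3 wpi, PBS against Sham 2 and PBS at 3 against 1 wpi 2; the week differences gave 0 against PBS and 1 against MSCs. Cldn5 then turned to −0.17 against Sham and 0.25 between weeks in IL-4 MSCs. The macrophage score, chosen after seeing the data, left 0 genes in each group against Sham at 1 wpi, 1 for IL-4 MSCs against PBS and 1 against MSCs, 0 between weeks for either PBS or IL-4 MSCs, and 1 in each week difference of IL-4 MSCs; Cldn5 turned to −0.35 against Sham and 0.045 between weeks. Direction and call were kept by 8 of the 24 with the endothelial and by 2 with the macrophage score. Both scores separate IL-4 MSCs at 1 wpi from other groups, so a covariate takes up part of the group difference. Relative to the endothelial score, signs turned for Tjp1 in MSCs against Sham (−0.0066), in IL-4 MSCs against Sham for Tjp1 (−0.30), Slc2a1 (−0.030) and Abcb1a (−0.32), for Tjp1 against PBS (−0.38) and, between weeks in IL-4 MSCs, for Tjp1 (0.39), Slc2a1 (0.14) and Abcb1a (0.44). Leaving out 1 mouse gave 0 to 2 genes for PBS against Sham, 1 to 3 for MSCs against Sham, 1 to 2 for PBS and 0 to 1 for MSCs at 3 against 1 wpi, and 6 in all 10 settings for IL-4 MSCs against Sham. Tjp1 against PBS was lost without PBS replicate 1 or 4 or IL-4 MSCs replicate 1 and with 2 groups fitted alone. No cause was tested. In the simulated counts, which gave all genes 1 spread, a change of 1.5-fold was often missed. The 10 genes differ in spread, with an SE of 0.0346 for Tjp1 and 0.161 for Mfsd2a in IL-4 MSCs against PBS at 1 wpi. The simulation therefore does not say which changes were missed for a single gene.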
